A study of Mus musculus with 2 samples.

Results

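The thioredoxin and glutathione redox genes described here are the thioredoxin inhibitor Txnip, the thioredoxins Txn1 and Txn2, the reductase Txnrd1, the peroxiredoxins Prdx1 and Prdx2, the glutathione peroxidases Gpx1 and Gpx4, and Gclc and Gclm, the 2 subunits of glutamate-cysteine ligase. They were taken by gene symbol and by no rule on measured values, though with earlier results of these data known. All 10 symbols matched 1 gene each among the 55536 genes annotated in GENCODE M21. The samples are 2 polyA-selected RNA-seq libraries of regulatory T cells (Treg cells, CD4 T cells that restrain immune responses), prepared as technical replicates 1 and 2 of 1 biosample. The mouse was male and 9 weeks old, and neither genotype nor treatment is named in the labels. There is 1 group and no comparison between conditions, so every ± is the SD of n = 2 technical libraries, a technical spread that says nothing of other mice. In a bulk sample, fewer cells of a type and less RNA per cell cannot be told apart.

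Cells remove hydrogen peroxide and lipid peroxides through a pair of parallel systems. In one, thioredoxin passes electrons to peroxiredoxins and other proteins, is recharged by thioredoxin reductase with NADPH, and is held inactive by Txnip, an alpha-arrestin that also lowers glucose uptake. In the other, glutathione, whose first and rate-limiting step of synthesis is made by glutamate-cysteine ligase, feeds the glutathione peroxidases, and T cells use both systems when they are activated and divide.

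Library 1 held 34697128 and library 2 held 32049199 estimated counts over annotated genes. The counts in the 2 libraries were further apart than sampling noise allows (a mean chi-square of 12.9 across the 18746 genes with enough counts), and they were not merged. All 5 Treg markers were detected, and Foxp3, the factor that defines the lineage, had 108 TPM in library 1 and 111 TPM in library 2. TPM is abundance corrected for transcript length and scaled to a fixed total, and detected means 1 TPM or more in both libraries. All 5 markers of T cells in general were detected too, with summed levels of 8727 TPM in library 1 and 8351 TPM in library 2. Red cell markers were detected for 5 of 7 matched genes, the globin genes and Alas2, and the list summed to 384 TPM in library 1 and 352 TPM in library 2. Hba-a2 (141 and 126 TPM) and Hbb-bs (129.5 and 126 TPM), which encode globin chains, each lay above Foxp3 in both libraries. Slc4a1, the red cell anion exchanger, was under the minimum, with 0.11 TPM in library 1 and 0.73 TPM in library 2. Markers of the other cell types summed to less: 4 of 5 B cell markers were detected (45.8 TPM in library 1 and 40.5 TPM in library 2, summed over the list), 3 of 7 myeloid markers (24.1 and 23.4 TPM), and 0 of 5 platelet markers (1.59 and 2.0 TPM, with Gp1bb at 0 in both).

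The residues that do the chemistry are shown first as the bases that encode them, from the GENCODE M21 transcripts (GRCm38), because 3 of the 10 genes carry a stop-like TGA that is read as selenocysteine. Capitals mark that codon in Txnrd1 (codon 498 of 499, chr10:82896022-82896045, plus strand), Gpx1 (codon 47 of 201, chr9:108339436-108339468, plus strand) and Gpx4 (codon 73 of 197 in Gpx4-202, chr10:80054722-80054754, plus strand). The last sequence is the matching stretch of the processed pseudogene Gpx4-ps2 (chr10:45875453-45875485, plus strand), shown because its sequence nearly matches that of Gpx4.
Txnrd1: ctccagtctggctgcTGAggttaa
Gpx1: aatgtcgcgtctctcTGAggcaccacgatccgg
Gpx4: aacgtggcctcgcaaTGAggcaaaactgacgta
Gpx4-ps2: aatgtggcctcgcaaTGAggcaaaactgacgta
In Txnrd1 a single glycine codon stands between the selenocysteine codon and the true stop, whereas in both peroxidases it lies well inside the coding sequence. Counted from 1 at the first printed base, Gpx4-ps2 differs from Gpx4 by C3T and by nothing else in these 33 bases.

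The other catalytic residues are cysteines, and their codons are in capitals below. Txn1 (codon 32 of 105 for the first cysteine, chr4:57951809-57951844, minus strand) and Txn2 (codon 90 of 166, minus strand, spliced from within chr15:77924639-77927699) each have a pair of cysteines with a glycine and a proline between them. Prdx1 (codon 52 of 199, chr4:116691811-116691837, plus strand) and Prdx2 (codon 51 of 198, chr8:84970471-84970497, plus strand) have the peroxidatic cysteine, the residue that peroxide oxidises.
Txn1: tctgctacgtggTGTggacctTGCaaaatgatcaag
Txn2: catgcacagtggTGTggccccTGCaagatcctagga
Prdx1: tttacttttgtgTGTcccacggagatc
Prdx2: ttcacttttgttTGCcccacggagatc
Despite the likeness of these sites, no stretch of 50 bases is common to Txn1 and Txn2 or to Prdx1 and Prdx2.

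All 10 redox genes were detected, where 23.9% of all annotated genes and 48.0% of protein-coding genes were. Together they summed to 2554 TPM in library 1 and 2493 TPM in library 2, or 0.255% and 0.249% of the total. Each lay above 31.1 TPM, the median of the 10583 detected protein-coding genes, and 6 of 10 (Txnip, Gpx1, Prdx1, Gpx4, Txn2 and Prdx2) lay in the top 10% of those genes. The median of log2(TPM + 1) was 7.42 over the 10 genes and 5.0 over detected protein-coding genes.

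**Figure D1:**
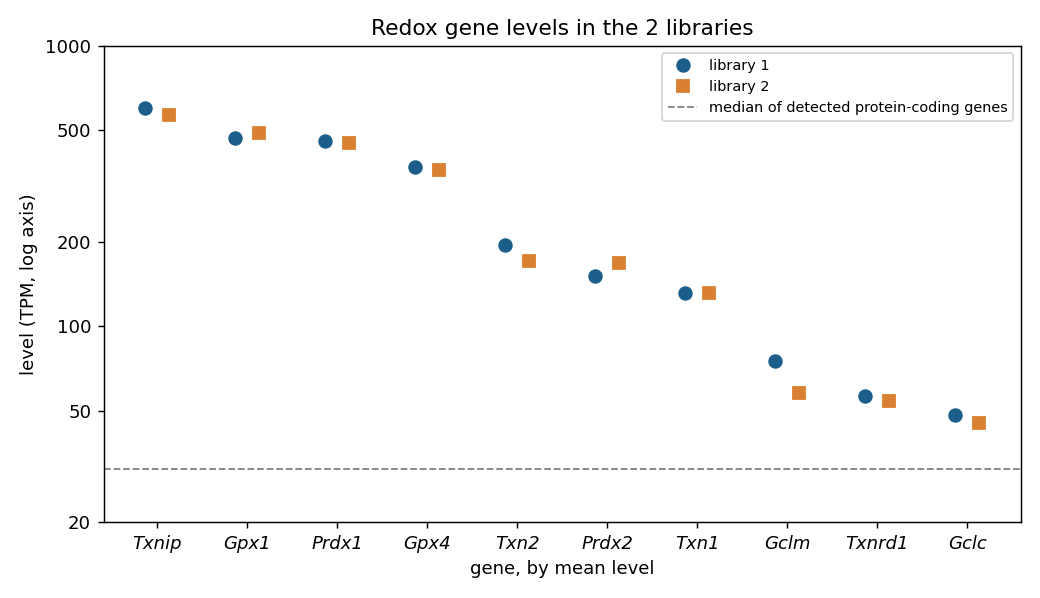
Level of each redox gene in TPM (log axis) in library 1 (circles) and library 2 (squares), with genes ordered by their mean; the dashed line is the median of detected protein-coding genes, 31.1 TPM. Levels fall into 3 steps, with Txnip, Gpx1, Prdx1 and Gpx4 between 362 and 599.8 TPM, Txn2, Prdx2 and Txn1 between 131 and 195 TPM, and Gclm, Txnrd1 and Gclc between 45.1 and 75.5 TPM.

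The order of levels in TPM was Txnip, Gpx1, Prdx1, Gpx4, Txn2, Prdx2, Txn1, Gclm, Txnrd1 and Gclc, and it was the same in both libraries. For 8 of the 9 neighbouring pairs the difference in means was larger than the combined SD of the pair. The exception was Gclm against Txnrd1, which differed by 11.5 TPM with a combined SD of 12.5 TPM. The widest gaps between neighbours were those of Gpx4 over Txn2, with a ratio of 2.0, and of Txn1 over Gclm, with a ratio of 1.97.

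Txnip (chr3:96557957-96561883, plus strand), the inhibitor, was the most abundant of the genes. It had 599.8 TPM in library 1 and 566 TPM in library 2, or 583 ± 23.8 TPM, and these rested on 30283 and 27941 estimated counts. Among detected protein-coding genes it ranked 184th in library 1 and 198th in library 2. Its RNA exceeded that of both thioredoxins: the Txnip to Txn1 ratio in TPM was 4.56 in library 1 and 4.3 in library 2, and the Txnip to Txn2 ratio was 3.07 and 3.32. These are ratios of RNA levels, and protein was not measured.

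A pair of coding transcripts carried most Txnip RNA. They are shown across the junction of exons 1 and 2 (chr3:96558468-96558909, plus strand), since the second exon starts 3 bases earlier in Txnip-202 (capitals), which lengthens the coding sequence to 1191 bases in Txnip-202, against 1188 bases in Txnip-201.
Txnip-201: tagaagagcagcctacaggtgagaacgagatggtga
Txnip-202: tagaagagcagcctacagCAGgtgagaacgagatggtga
Txnip-202 took 46.4% of the gene's TPM in library 1 and 47.2% in library 2, and Txnip-201 took 36.8% and 36.6%. Few reads can tell them apart, as only 78 of the 2778 windows of 50 bases in Txnip-202 are absent from Txnip-201. The model's own SD for Txnip-202 was 633 counts in library 1 and 531 counts in library 2, while for the whole gene it was 2.2 and 2.64 counts. The gene's level was thus far better determined than its division. Another transcript, Txnip-204, annotated as processed and without a coding sequence, took 14.0% and 13.4% of the TPM but 3.22% and 3.06% of the estimated counts, being short at 599 bases.

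The Txnip promoter is shown for a motif already known in this gene, so finding it here tests nothing. The stretch runs from 145 to 9 bases before the start (chr3:96557812-96557948, plus strand, RefSeq, GRCm38.p6), and capitals mark the paired E-box, the sequence through which the glucose-sensing factors MondoA and Mlx are known to act on this gene.
Txnip promoter: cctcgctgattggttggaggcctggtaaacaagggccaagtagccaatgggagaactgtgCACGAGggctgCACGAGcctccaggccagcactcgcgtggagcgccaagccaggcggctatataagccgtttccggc
The search for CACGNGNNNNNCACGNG covered both strands from 250 bases before to 50 bases after the start. This motif occurred in 16 of 32851 promoters (0.0487%). Among the 14 promoters of the 9 redox genes with a promoter in the table, it occurred in 1, that of Txnip. In Txnip it lay at bases -85 to -69 relative to the start. No promoter of the other alpha-arrestins or of the regulators listed with them held it, Arrdc4 included. The genes that encode the pair of factors were both detected, Mlx at 77.1 ± 2.35 TPM and Mlxip (MondoA) at 48.6 ± 1.86 TPM, whereas Mlxipl, which encodes the related factor ChREBP, had 0.17 TPM in library 1 and 0 in library 2. Of 8 genes listed as alpha-arrestins or as these regulators, 6 were detected. Arrdc1 was the highest at 212 ± 2.09 TPM, below Txnip in both libraries, Arrdc3 had 24.0 ± 0.813 TPM, and Arrdc5 was under the minimum with 0.05 TPM in library 1 and 0 in library 2.

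The annotated antisense gene Gm15441 overlaps the whole of Txnip on the other strand and shared 511 of the 2778 windows of Txnip-202. It was given 5.6 TPM in library 1 and 4.57 TPM in library 2. Whether the counting used strand is not given in the sources used here, so reads from the pair cannot be told apart where they overlap.

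The cytosolic thioredoxin Txn1 (chr4:57943373-57956411, minus strand) had 131 TPM in library 1 and 132 TPM in library 2, or 132 ± 0.262 TPM, from 2783 and 2709 estimated counts. Its ratio of library 1 over library 2 was 0.997 in TPM, the nearest to 1 of the 10 genes, but 0.949 both by TMM-scaled counts and by FPKM, where others were nearer. M21 gives it 1 transcript, Txn1-201, so its level rests on no division between forms. A processed pseudogene, Txn-ps1, shared 25 of its 1002 windows and was given 1.41 TPM in library 1 and 1.45 TPM in library 2.

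The mitochondrial thioredoxin Txn2 (chr15:77915047-77929006, minus strand) was higher than Txn1 in both libraries. It had 195 TPM in library 1 and 171 TPM in library 2, or 183 ± 17.5 TPM, from 4962 and 4203 estimated counts. The Txn2 to Txn1 ratio in TPM was 1.49 in library 1 and 1.29 in library 2. Txn2-201 carried 85.3% and 87.8% of its TPM. Txn2-206, whose coding sequence is annotated as incomplete at its start, took 6.65% and 5.51%.

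The cytosolic reductase Txnrd1 (chr10:82833951-82897712, plus strand), which recharges Txn1, was the second lowest of the genes. It had 56.5 TPM in library 1 and 53.9 TPM in library 2, or 55.2 ± 1.79 TPM, from 3712 and 3366 estimated counts. The Txn1 to Txnrd1 ratio in TPM was 2.33 in library 1 and 2.44 in library 2. Transcripts with the annotated selenocysteine codon carried 88.7% of its TPM in library 1 and 86.9% in library 2. Most of that was shared between Txnrd1-201 (46.2% and 47.4%) and Txnrd1-206 (42.1% and 38.7%), which have different first exons and coding sequences of the same length, 1497 bases. Txnrd1-202, a retained intron of 483 bases, took 6.41% and 6.03% of the TPM and 0.896% and 0.861% of the estimated counts. No 50-base window of the gene occurred in another gene. The genes annotated within its span were nearly silent, with Eid3 at 0.19 and 0.23 TPM, Gm38560 at 0.16 and 0 TPM, and Gm47073 at 0 in both libraries.

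The mitochondrial reductase Txnrd2, named here after its value was seen, had 31.1 ± 0.566 TPM. Among 15 thioredoxin-fold relatives and reductases, a list that includes it, all 15 were detected, with a median of 50.4 TPM. Their highest were Txndc9 (84.2 ± 2.8 TPM), Txnl1 (84.1 ± 1.11 TPM), Tmx1 (81.0 ± 7.21 TPM) and Tmx2 (78.9 ± 1.69 TPM). Each of these 4 lay below Txn1 and Txn2 in both libraries.

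Of the peroxiredoxins, which reduce peroxides with electrons from thioredoxin, Prdx1 (chr4:116685544-116700822, plus strand) was the higher. It had 456 TPM in library 1 and 450.1 TPM in library 2, or 453 ± 4.46 TPM, from 9956 and 9493 estimated counts. Prdx1 exceeded its electron donor Txn1 by a TPM ratio of 3.47 in library 1 and 3.42 in library 2.

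The division of Prdx1 among transcripts changed with the unit. By TPM the leading form was Prdx1-201, a 636-base transcript annotated with no end to its coding sequence, at 53.8% in library 1 and 54.2% in library 2. Prdx1-204, the 2294-base transcript with a complete coding sequence, took 23.8% and 23.7% by TPM, and Prdx1-202, also complete, took 21% and 20.7%. By estimated counts the order turned, with Prdx1-204 at 51.9% and 51.7% and Prdx1-201 at 30.6% and 30.9%. Of the 2245 windows of Prdx1-204, 244 occurred in other genes, most of them in the processed pseudogenes Gm21399 (2.76 TPM in library 1 and 3.08 TPM in library 2) and Gm7204 (0.78 and 0.63 TPM).

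Prdx2 (chr8:84969587-84974834, plus strand), which is also one of the most abundant proteins of red cells, had 151 TPM in library 1 and 168 TPM in library 2. Its mean was 159 ± 11.4 TPM, from 3215 and 3235 estimated counts. The Prdx1 to Prdx2 ratio in TPM was 3.01 in library 1 and 2.69 in library 2. The red cell marker values given above stand beside this level, and their part in it was not tested.

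Retained introns held a larger share of Prdx2 than of any other of the 10 genes. They took 29.8% of its TPM in library 1 and 38.9% in library 2, against at most 11.3% and 11.5% (Txnrd1) in the others. By estimated counts they took 17.6% and 24.4%, against at most 3.78% and 3.36% (Txnrd1) in the others. By TPM the main one, the 549-base Prdx2-205, took 23.3% and 30.6%, and Prdx2-207 took 5.4% and 7.09%. Of the 500 windows of 50 bases in Prdx2-205, 103 occurred in no other transcript of the gene. Retained-intron transcripts came to 45.2 TPM in library 1 and 65.2 TPM in library 2, while protein-coding transcripts came to 106 and 102 TPM. The higher Prdx2 level in library 2 thus lay in the retained-intron transcripts, and the protein-coding ones were lower there. Prdx2-208, the leading coding form, took 56.6% and 49.8%, and Prdx2-201 took 8.01% and 6.31%.

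Counted over protein-coding transcripts alone, a choice made after seeing the data, Prdx2 averaged 104 ± 2.72 TPM and fell below Txn1 in both libraries. The 2 neighbours of Prdx2 overlap its ends on the other strand. Junb, which encodes a subunit of the AP-1 transcription factor, shares 351 bases with it and had 562 TPM in library 1 and 413 TPM in library 2. Rnaseh2a, which encodes a ribonuclease subunit, shares 181 bases and had 83.1 TPM in library 1 and 82.7 TPM in library 2.

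The rest of the peroxiredoxin family was present as well. Of 4 other peroxiredoxins and the sulfiredoxin Srxn1, which repairs overoxidised peroxiredoxins, 4 of 5 were detected. Prdx6 had 213 ± 5.97 TPM and Prdx5 had 199 ± 2.64 TPM, both above Prdx2, while the mitochondrial Prdx3 had 83.8 ± 1.28 TPM and the endoplasmic reticulum form Prdx4 had 37.2 ± 3.91 TPM. The pseudogene Prdx2-rs3 had no counts in either library. Srxn1 was under the minimum in both libraries, with 0.79 TPM in library 1 and 0.83 TPM in library 2, from 46 and 47 estimated counts.

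**Figure D2:**
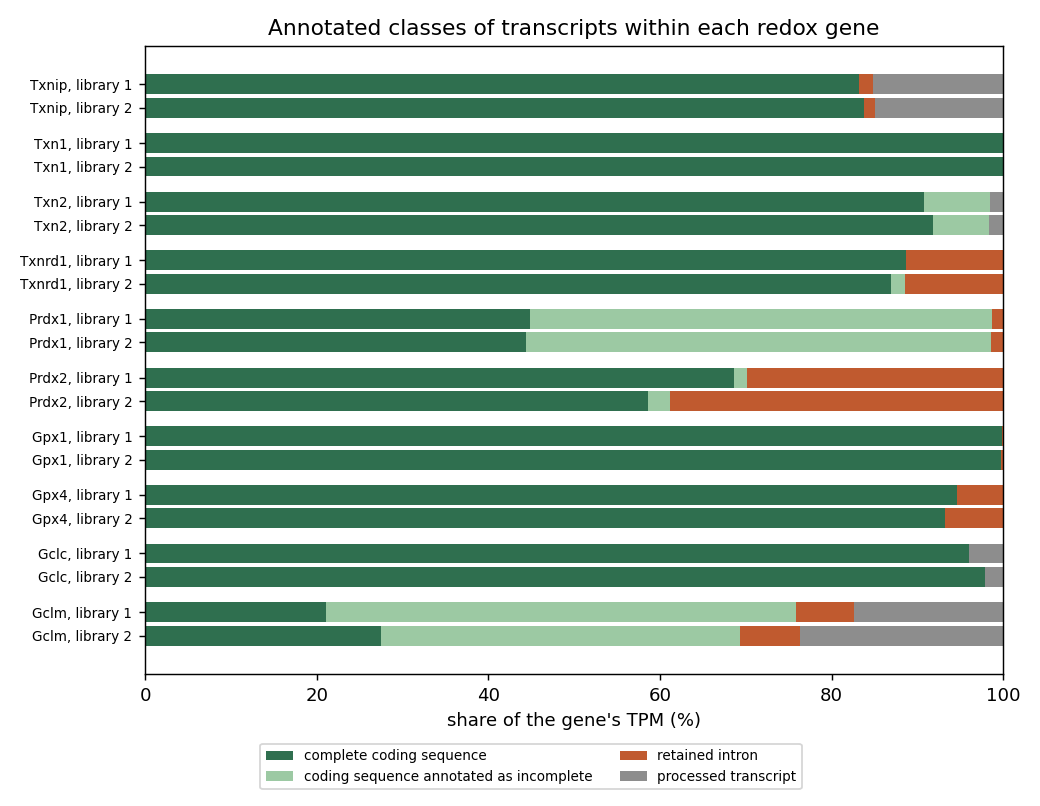
Share of each redox gene's TPM (percent) in transcripts with a complete coding sequence, a coding sequence annotated as incomplete, a retained intron or a processed transcript without a coding sequence, in library 1 (upper bar of each pair) and library 2 (lower bar). Txn1 and Gpx1 lie almost wholly in complete coding transcripts, Prdx2 has retained introns at 29.8% in library 1 and 38.9% in library 2, and Gclm has complete coding transcripts at 21% and 27.5%.

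The 2 glutathione peroxidases both ranked among the 4 highest of the genes. Gpx1 (chr9:108338903-108340343, plus strand), which reduces hydrogen peroxide, had 471 TPM in library 1 and 488 TPM in library 2. Its mean was 479 ± 12 TPM, from 7257 and 7291 estimated counts, and none of its 50-base windows occurred in another gene. Gpx1 is also a red cell enzyme, and the part of the red cell marker levels in its own was not tested.

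Gpx4 (chr10:80047166-80056439, plus strand), which reduces lipid peroxides in membranes and so restrains ferroptosis, had 369 TPM in library 1 and 362 TPM in library 2. Its mean was 365 ± 4.47 TPM, from 5282 and 4980 estimated counts. The Gpx1 to Gpx4 ratio in TPM was 1.28 in library 1 and 1.35 in library 2.

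The annotated coding sequence of most Gpx1 RNA did not include the selenocysteine codon. Gpx1-204, with a coding sequence of 435 bases, took 70.0% of the gene's TPM in library 1 and 69.8% in library 2. Gpx1-201, with the full coding sequence of 603 bases and the codon printed above, took 29.8% and 29.5%. By estimated counts the shares of Gpx1-204 were 58.0% and 57.8%. Gpx1-204 lacks an intron of 104 bases (chr9:108339317-108339420) that Gpx1-201 keeps in its first exon, and its annotated coding sequence starts at 108339481, downstream of the codon at 108339451. The bases of the codon are therefore still in the RNA of Gpx1-204, outside its annotated coding sequence.

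The support for this division is narrow in sequence. Of the 604 windows of 50 bases in Gpx1-204, 40 are absent from Gpx1-201, while 459 of the 1023 windows of Gpx1-201 are absent from Gpx1-204. Gpx1-204 also starts and ends inside Gpx1-201, at 108339276 and 108340250, against 108339054 and 108340343. The model's SD for Gpx1-204 was 66.4 of 4208 counts in library 1 and 70.9 of 4215 counts in library 2.

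In Gpx4 and Txnrd1 the picture differed, since transcripts with the annotated codon dominated. They took 94.6% of Gpx4 TPM in library 1 and 93.2% in library 2. Counted over such transcripts alone, Gpx4 had 349 TPM in library 1 and 338 TPM in library 2, Gpx1 had 140.2 and 144 TPM, and Txnrd1 had 50.1 and 46.9 TPM. On that count Gpx4 was higher than Gpx1 in both libraries, the reverse of their order as whole genes.

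Gpx4 is known to be made in cytosolic, mitochondrial and nuclear forms that differ at their start. Gpx4-207, the shortest coding form with 471 coding bases, took 88.2% of the TPM in library 1 and 87.9% in library 2. Gpx4-202, whose longer coding sequence of 591 bases has the same length as that known for the mitochondrial form, took 4.19% and 3.59%. Gpx4-201, with 759 coding bases and another first exon, took 2.26% and 1.66%. Gpx4-207 begins inside the region covered by Gpx4-202, and 48 of its 686 windows are absent from Gpx4-202.

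The sequence of Gpx4 nearly matches the processed pseudogene Gpx4-ps2 (chr10:45875291-45876086, plus strand). Over the 555 bases aligned, the pseudogene's annotated transcript matched Gpx4-202 at 553, or 99.64%, with an unbroken identical run of 314 bases. Of the 910 windows of Gpx4-202, 627 occurred in another gene. The model gave Gpx4-ps2 89.5 TPM in library 1 and 115 TPM in library 2, from 1386 and 1728 estimated counts, so it took 20.8% and 25.8% of the counts of the pair. The model's SD of the Gpx4 count was 76.2 in library 1 and 78.1 in library 2, the widest of the 10 genes. Summed, a choice made after seeing the data, the pair came to 6669 counts in library 1 and 6708 in library 2, or 468 ± 13.5 TPM, which is 1.28 times the level of Gpx4 alone.

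The other glutathione peroxidases were near absent. Of the 6 listed, Gpx7 alone, an endoplasmic reticulum enzyme, was detected, with 3.29 TPM in library 1 and 2.63 TPM in library 2. Gpx3, the plasma form, had 0.95 TPM in library 1 and 1.33 TPM in library 2, so it passed the minimum in library 2. Gpx2, Gpx5 and Gpx6 lay at or below 0.11 TPM, and Gpx8 had no counts in either library, where up to 3 reads could still be missed in each.

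Of the machinery for reading the selenocysteine codon, all 6 genes listed here were detected, with a median of 34.9 TPM. Eefsec, the elongation factor that delivers selenocysteine, was the highest at 47.5 ± 3.95 TPM, followed by Secisbp2l (37.5 ± 0.863 TPM), the kinase Pstk (37.0 ± 2.38 TPM) and Sephs2 (32.8 ± 4.49 TPM), which makes the selenium donor. All 12 other selenoproteins listed were detected. Selenow (489 ± 12.1 TPM) lay within the spread of Gpx1 (479 ± 12 TPM), and Selenof (334 ± 20.2 TPM), Selenok (169 ± 16.8 TPM) and Selenop (145 ± 6.68 TPM) followed.

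The glutathione synthesis pair were the least abundant enzymes with Txnrd1. Gclc (chr9:77754535-77794485, plus strand), the catalytic subunit, had 48.3 TPM in library 1 and 45.1 TPM in library 2, or 46.7 ± 2.27 TPM, from 3335 and 3069 estimated counts. Gclc-201 carried 96.0% of that in library 1 and 97.8% in library 2, and no window of the gene occurred elsewhere. With 16 exons and 1 dominant form, Gclc had the least divided level after Txn1.

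Gclm (chr3:122245557-122270732, plus strand), the modifier subunit that raises the activity of Gclc, had 75.5 TPM in library 1 and 57.9 TPM in library 2. Its mean was 66.7 ± 12.4 TPM, from 1576 and 1254 estimated counts, the lowest counts of the 10 genes. The Gclm to Gclc ratio in TPM was 1.56 in library 1 and 1.28 in library 2.

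The level of Gclm was spread over 6 transcripts with 5% or more in either library, more than for any other of the genes. The TPM share of Gclm-203, a coding transcript annotated without its start, was 37.5% in library 1 and 31.0% in library 2. Gclm-202, a processed transcript, took 17.4% and 23.7%, Gclm-206 took 16.9% and 22.4%, Gclm-207 took 15.4% and 9.54%, Gclm-205, a retained intron, took 6.67% and 6.92%, and the 5589-base Gclm-201 took 4.15% and 5.16%. Gclm-201 and Gclm-206 are the 2 with a complete coding sequence, and together they had 15.9 TPM in library 1 and 16.0 TPM in library 2. By estimated counts the pair took 39.6% of the gene in library 1 and 47.3% in library 2. Gclm-201 alone took 23.3% and 27.1% of the counts, and the 292-base Gclm-207 took 3.79% and 2.2%. The difference between libraries lay in Gclm-203 and Gclm-207, both annotated as incomplete, with 39.9 TPM in library 1 and 23.5 TPM in library 2. Without this pair, which was chosen after seeing the values, the gene had 35.6 and 34.5 TPM.

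Neighbours make part of Gclm hard to assign. Gm17494, on the other strand, shared 248 windows of the gene and had 17.8 TPM in library 1 and 16.5 TPM in library 2. The gene also contains Gm6061, a pseudogene related to Ppia, which encodes the abundant prolyl isomerase cyclophilin A, and 206 windows of Gclm occurred in Ppia itself (3636 TPM in library 1 and 3608 TPM in library 2). Leaving out Gclm-202, which ends in that stretch, left 62.3 TPM in library 1 and 44.2 TPM in library 2.

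Beyond the first step, glutathione metabolism was uneven. Of 12 genes for synthesis, recycling and turnover, 8 were detected, with a median of 5.69 TPM, against 46.7 TPM for Gclc and 66.7 TPM for Gclm. Slc3a2, the shared heavy chain of several amino acid transporters, was the highest at 108 ± 7.21 TPM, and the reductase Gsr, which recharges glutathione, had 43.1 ± 1.92 TPM. The exporter Abcc1 had 25.1 ± 1.27 TPM and Ggct, which breaks down gamma-glutamyl peptides, had 24.3 ± 3.66 TPM. The 4 genes under the minimum were Slc7a11, the cystine carrier that pairs with Slc3a2 (0.12 TPM in library 1 and 0.15 TPM in library 2), Cth and Cbs, which make cysteine from methionine (0.11 TPM in library 1 and 0 in library 2 for Cth, 0.1 and 0.03 TPM for Cbs), and Chac1, a glutathione-degrading enzyme (0.03 TPM in library 1 and 0 in library 2).

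Glutathione users differed between lists, with a median of 97.3 TPM for the glutaredoxins and 11.5 TPM for the glutathione transferases. All 4 glutaredoxins were detected, Glrx3 at 103 ± 8.83 TPM, Glrx at 103 ± 6.6 TPM, Glrx5 at 91.4 ± 10.6 TPM and Glrx2 at 70.1 ± 3.73 TPM, so each exceeded Gclc and Txnrd1 in both libraries. Of 13 glutathione transferases 10 were detected, led by Gstp1 at 430.4 ± 4.2 TPM, between Prdx1 and Gpx4 in both libraries. Mgst2 had 159 TPM in library 1 and 112 TPM in library 2, Gsto1 had 103 ± 6.65 TPM and Gstp3 had 82.8 ± 3.04 TPM. Gstm5, Gstt1 and Mgst1 were under the minimum, with means of 0.08, 0.095 and 0.73 TPM.

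Sources and alternative removers of peroxide were present too. Of 4 superoxide dismutases and catalase 3 were detected, Cat at 90.7 ± 2.69 TPM, Sod2 at 89.7 ± 1.3 TPM and Sod1 at 74.5 ± 5.69 TPM, all below both Txn1 and Prdx2, and Sod3 had a mean of 0.045 TPM. Among 10 genes of NADPH oxidase complexes 6 were detected. Rac2, a GTPase with many other roles in T cells, had 2161 ± 24.8 TPM, Cyba had 714 ± 18.7 TPM and Ncf4 had 169 ± 1.99 TPM, but the catalytic subunit Cybb had 16.8 ± 0.269 TPM. Nox1 and Nox4 lay at means of 0.54 and 0.05 TPM, and Duox1 and Duox2, like Gpx8, had no counts in either library. Cybb and Ncf4 are also myeloid genes, and the part of the myeloid marker levels given above in their values was not tested.

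NADPH powers both systems. Of 12 genes listed for its supply, 11 were detected. The list also takes in enzymes whose own step forms no NADPH, some of them in the pentose phosphate pathway. Taldo1 (263 ± 6.07 TPM), Tkt (191 ± 5.31 TPM), Me2 (115 ± 9.69 TPM) and Pgls (103 ± 9.18 TPM) were the highest, and Me1, a malic enzyme that forms NADPH, was under the minimum with a mean of 0.07 TPM. Which cofactor the Me2 enzyme uses was not examined. Taldo1 and Tkt act in the branch of the pentose phosphate pathway that forms no NADPH, and the step of Pgls forms none either. G6pdx and Pgd, which form NADPH in that pathway and are named here after their values were seen, had 45.4 ± 4.1 TPM and 56.5 ± 1.03 TPM.

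NRF2 (encoded by Nfe2l2) is the factor known to induce Txnrd1, Prdx1, Gclc and Gclm under oxidative stress. Of 12 genes listed as its regulators and targets 11 were detected, the ferritin genes Ftl1 (1759 ± 6.67 TPM) and Fth1 (1559 ± 0.559 TPM) far above the rest. Cul3, part of the ligase that degrades NRF2, had 178 ± 9.98 TPM and its adaptor Keap1 had 53.1 ± 3.87 TPM. The classical target Nqo1 was under the minimum, with 0.79 TPM in library 1 and 0.58 TPM in library 2. Nfe2l2 itself, named after its value was seen, had 35.5 ± 2.81 TPM. The letters TGACNNNGC are the core of the antioxidant response element through which NRF2 acts. In the promoter table they were found on either strand in 12.4% of all promoters. Gclc has no promoter in that table and was not searched. The letters were in 3 of the 14 promoters of the 9 matched redox genes, 1 each for Gclm, Prdx1 and Txnrd1. They lay at bases -134 to -126 in Gclm, -133 to -125 in Prdx1 and -92 to -84 in Txnrd1. With so common a motif this is a description of letters only.

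**Figure D3:**
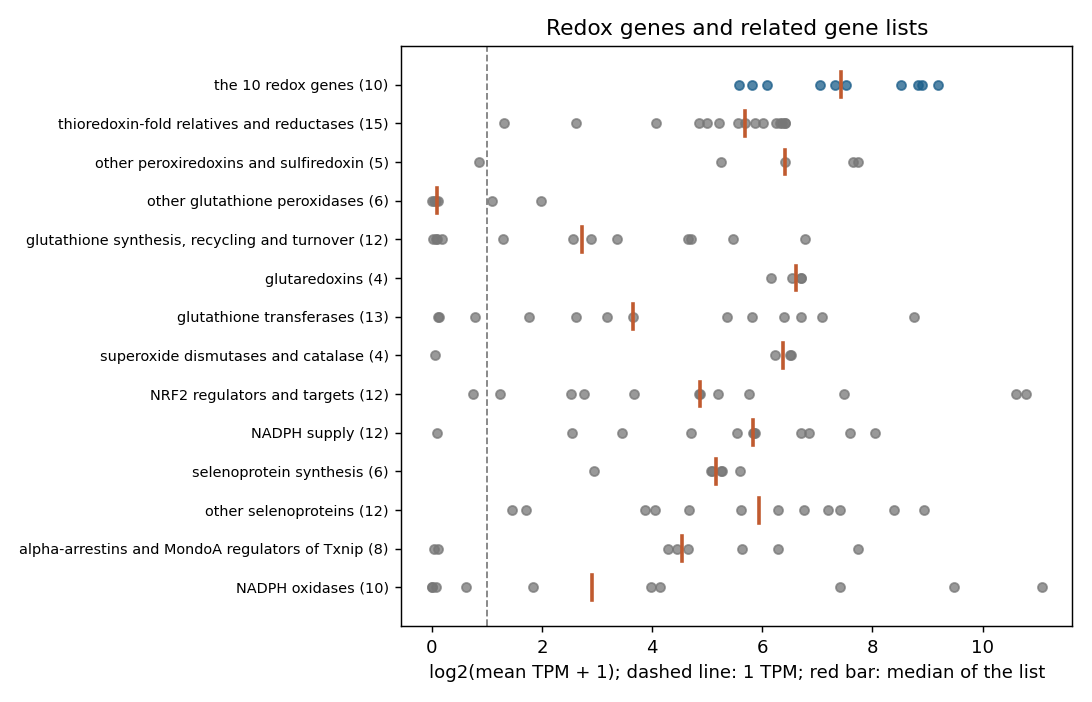
Levels of the 10 redox genes (top row) and of 13 lists of related genes, as log2(mean TPM + 1) over the 2 libraries; each point is a gene, the red bar is the median of the list, the dashed line is 1 TPM, and the number of genes is in parentheses. The redox genes have a median of 7.42, and the other glutathione peroxidases, in contrast to Gpx1 and Gpx4 in the top row, have a median of 0.0908.

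Over all 13 lists, 97 of 119 related genes were detected. The median of log2(TPM + 1) was highest in the glutaredoxins (6.62), the other peroxiredoxins (6.41) and the superoxide dismutases and catalase (6.37), each below the 7.42 of the 10 redox genes. The lists were not chosen at random and their medians carry no test.

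The last comparison sets the 2 libraries against each other, to size the technical error behind the levels. Ratios are library 1 over library 2. In TPM, 7 of 10 redox genes were higher in library 1 and 3 (Txn1, Prdx2 and Gpx1) were higher in library 2. The split was 5 to 5 by TMM-scaled counts, 4 to 6 by FPKM and 3 to 7 by M4 counts. Prdx1 and Gpx4 changed direction with TMM factors and Txnrd1 with FPKM. Txnip changed direction only with M4 counts, which come from another annotation and way of counting. The median log2 ratio in TPM was 0.046 over the redox genes and 0.064 over detected genes. Of the 10, 7 lay within 1.1-fold, while 44.5% of the 13275 detected genes did. The median size of the log2 ratio was 0.0746 over the redox genes and 0.159 over detected genes. Gclm alone was more than 25% higher in one library than in the other, with a TPM ratio of 1.3, whereas 22.2% of detected genes passed that limit in either direction and 12.8% did with library 1 higher. The next largest ratio was that of Txn2, at 1.14-fold, and the lowest was that of Prdx2, at 0.904-fold. The redox genes are abundant, and abundant genes have less counting error, so these shares set genes of unequal depth side by side. Of the detected genes nearest to Gclm in M21 count, 11.5% passed the 25% limit in TPM. For the other redox genes that share ran from 1.5% (near Gpx4) to 6% (near Txn1).

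**Figure D4:**
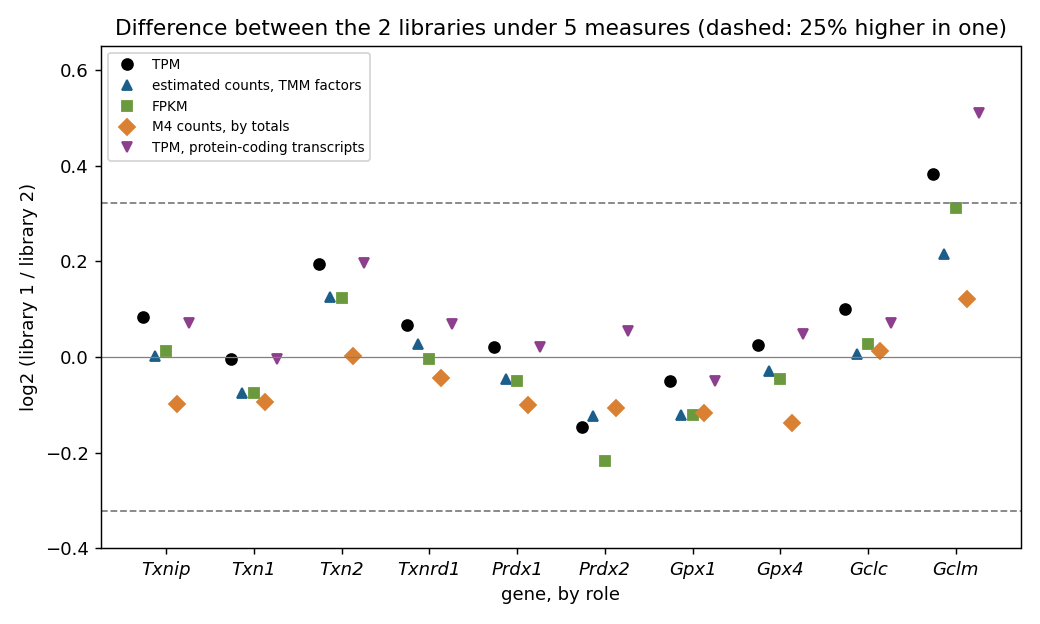
Log2 ratio of library 1 over library 2 for each redox gene, in role order, by TPM, estimated counts scaled by TMM factors, FPKM, M4 counts scaled by totals and TPM of protein-coding transcripts; dashed lines mark a level 25% higher in one library. Gclm crosses the line by TPM (0.38) and by protein-coding transcripts (0.51) and stays inside it by TMM-scaled counts (0.22), FPKM (0.31) and M4 counts (0.12).

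The excess of Gclm in library 1 changed with the measure. It was 1.42-fold over protein-coding transcripts only and 1.3-fold in posterior mean TPM, but 1.24-fold by FPKM, 1.16-fold by estimated counts scaled with TMM factors and 1.09-fold by the whole-number counts on GENCODE M4, which were 576 in library 1 and 494 in library 2. The mean length that the tables assign to Gclm was 1037 bases in library 1 and 1104 bases in library 2. By FPKM, TMM-scaled counts or M4 counts no redox gene passed the 25% limit.

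The M4 tables count far fewer reads for some of these genes than the M21 tables. Per gene, M4 counts were 49% of the M21 estimated counts for Gclc in library 1 and 49.2% in library 2, but 5.47% and 5.96% for Gpx4, 5.7% and 5.97% for Prdx1 and 8.29% and 8.98% for Txnip. Over the detected genes nearest to each in M21 count, the median share was 36.6% in library 1 and 38.2% in library 2 for Gpx4, 21.5% and 23.1% for Prdx1 and 5.33% and 5.91% for Txnip. In both libraries 8 of the 10 redox genes lay below the median of genes near them in count, and Txnip and Gclc lay above it. Those below include genes that share windows with pseudogenes (Gpx4 and Prdx1) and a gene with no shared window (Gpx1), and the cause was not tested. M4 counts were used only for ratios between libraries, not for levels.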

How the data were processed

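PolyA-selected RNA of 1 mouse Treg biosample was measured in 2 technical libraries. For each library the authors deposited gene and transcript tables on GENCODE M21 (mm10) made from transcriptome alignments, and a gene table on GENCODE M4 made from genome alignments (source: the deposited file lists). Estimated counts (a model divides reads that map to several features), TPM, FPKM, a percent of each gene's abundance per transcript, posterior means and posterior SDs stand in the M21 tables, per the file headers. The M4 tables deposited by the authors hold whole-number counts, totalling 9576557 in library 1 and 8937887 in library 2. The aligner, quantifier, counter and strandedness: not given in the sources used here. Every deposited effective length is the transcript length less 49 bases, or 0 for shorter transcripts, and windows of 50 bases were chosen to match.

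Rows that name no gene (26345, with 0.197% of estimated counts in library 1 and 0.212% in library 2) were left out of counts of genes but stay in the denominators of TPM. Levels are TPM as deposited, and detection needed 1 TPM or more in each library. Transcript shares were recomputed from TPM and from estimated counts. Names, coordinates and coding stretches came from GENCODE M21 (GRCm38, 1-based), and promoters from RefSeq (GRCm38.p6), where 9 of 10 redox genes matched. Windows of 50 bases were matched on both strands against all M21 transcripts. Ratios between libraries used TPM, with rounded estimated counts scaled by edgeR 4.0.16 TMM factors or DESeq2 1.42.0 size factors (R 4.3.3) as alternatives. The scaling was tried on simulated counts with sampling noise only, which is less than these libraries showed. One library a side leaves no residual degrees of freedom, so no test was made and no p is given. Other work used Python 3.11.15, pandas 2.3.3, Biopython 1.88 and matplotlib 3.10.9.

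The genes and lists were chosen with earlier results of these data known. All 10 genes were named, with transcripts at 5% or more of a gene's TPM in either library, genes overlapping them or pseudogenes carrying their symbol, and per list the 4 highest genes and those under the minimum. Of the listed symbols 1 (Ahsp, a red cell marker) had no match. One marker under the minimum is not reported here. Intervals are not given, and posterior SDs cover the model's division of reads only. Alternatives covered the minimum, pseudocount, unit, estimator, scaling, fold, count filter and each library left out.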

Additional observations from a re-analysis of the deposited data

Results flagged for a closer look

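Signal outside the measurements used for the redox genes lay in the rows of the gene tables that name no gene. Summed over 26345 rows, they held 68584.7 estimated counts in library 1 and 67964.5 estimated counts in library 2. No count given for a redox gene includes them, though they stay in the denominators of TPM. No group had 4 or more libraries, so none was examined for a library that stands apart.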

How the results depend on the processing

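All 10 redox genes were detected at a minimum of 0.1 or 10 TPM, in FPKM, in posterior mean TPM and in each library alone (10 to 10). The lower minimum and each library alone could not have given another count. The median of log2(TPM + 1), 7.42, was 6.75 in FPKM and 7.33 in posterior mean TPM, and 7.41 to 7.43 with each library left out. The count of genes more than 25% higher in one library, 1 (Gclm), was 0 with edgeR TMM factors, DESeq2 size factors, FPKM and M4 counts, and 1 with posterior mean TPM and with protein-coding transcripts only. At a fold of 1.5 it was 0 (8.47% of detected genes), and at 1.1 it was 3 (Gclm, Txn2 and Prdx2; 55.5% of detected genes). The causes were not tested. FPKM scaled every mean level to between 0.621 and 0.624 of its TPM. It differs from TPM by 1 factor per library, so the order of the genes within a library could not change. Protein-coding transcripts only, chosen after seeing the data, put Prdx2 below Txn1 in both libraries and, in library 2, Gpx1 above Txnip and Gclm below Gclc. Adding Gpx4-ps2 to Gpx4, also chosen after seeing the data, put that sum above Prdx1 alone in both libraries. By estimated counts the leading transcript differed for 1 of 10 genes, Prdx1. No paired analysis was possible because the series has 1 group. Gclm had the fewest counts of the 10 genes, and Gpx4 had the largest share of windows found in other genes. What limits either level was not tested.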
